A study of Mus musculus with 3 samples.

Results

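The 8 genes described here make up a short route by which the small intestine packs dietary fat into chylomicrons: the apolipoprotein genes Apoa1, Apoa4, Apob, Apoc3 and Apoc2, the lipid transfer gene Mttp, the vesicle coat gene Sar1b and the transcription factor gene Creb3l3. They were chosen by name, though with earlier results of these data known, and all 8 of 8 symbols were found among the 31053 genes counted. Their unique molecular identifiers (UMIs), which count captured mRNA molecules, were followed over cell classes, along the villus and over the 3 segments of the mouse small intestine. Single cells came from duodenum, jejunum and ileum of 12-week-old male wild-type C57BL/6N mice. For each segment, living cells excluding propidium iodide were sorted from 3 pooled mice and made into 1 droplet library. No other treatment or genotype was compared, and according to the study's methods the mice had free access to normal chow. Whether food was withdrawn before the cells were taken is not given in the sources used here. With 1 library for each segment, a difference between segments has no replicate check, and differences between the pooled mice cannot be seen.

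A chylomicron is assembled in the endoplasmic reticulum of the enterocyte, the absorptive cell that covers the villus. The protein of Apob forms the scaffold of the particle, and the microsomal triglyceride transfer protein, of which Mttp encodes the large subunit, loads triglyceride onto it. Apoa1 and Apoa4 encode surface apolipoproteins of the particle, Apoc2 an activator of lipoprotein lipase and Apoc3 an inhibitor of it. The small GTPase of Sar1b starts the COPII coat that carries the prechylomicron from the endoplasmic reticulum to the Golgi, and its loss in people causes chylomicron retention disease. Creb3l3 encodes a membrane-bound transcription factor of liver and intestine that is freed by cleavage in the Golgi and acts on genes of triglyceride metabolism, apolipoprotein genes among them. Enterocytes are born in the crypt, pass the villus bottom and reach the tip, where they are shed.

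The files held 8139 to 9595 cell barcodes for each library. Barcodes were kept with 800 to 50000 UMIs, with 200 to 6000 genes detected and with no more than 40% of their UMIs mitochondrial. This left 4255 duodenal, 4360 jejunal and 8071 ileal cells, with medians of 12424, 11737 and 5536 UMIs. The median share of mitochondrial UMIs was 27.1%, 27.2% and 11.1%, so the ileum library stood apart in both depth and mitochondrial share. Cell classes were rebuilt from clusters named by marker genes, and the 8 genes were left out of the genes that defined the clusters. The classes held 10379 enterocytes, 1043 early enterocytes, 748 goblet, 302 tuft, 171 enteroendocrine (EEC), 225 stem or proliferating (ISC), 24 Paneth, 1230 T and 608 B cells, beside 87 IgA B cells, 30 macrophages or monocytes and 1839 cells that stayed unnamed. All 13 enterocyte markers were detected in the enterocytes, where they summed to 310.2 UMIs per 10000 UMIs. A doublet caller marked 146 ileal cells and none in the other libraries, where it cannot be taken to have worked, and 21 barcodes of kept cells occurred in more than 1 library. A level is given as UMIs of the gene per 10000 UMIs of the summed cells. The protocol counts each molecule once from its 3′ end whatever the length of the transcript, so levels of different genes are comparable as molecules within the limits of capture.

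On the GRCm38 assembly, 3 of the genes lie together on chromosome 9 within 14880 bases. Apoa1 occupies chr9:46228580-46230466 on the plus strand, Apoc3 chr9:46232933-46235636 on the minus strand and Apoa4 chr9:46240696-46243459 on the plus strand. The ends of Apoa1 and Apoc3 are 2466 bases apart, and the starts of Apoc3 and Apoa4 are 5059 bases apart. The other genes stand alone: Apob at chr12:7977648-8016835 on the plus strand, Apoc2 at chr7:19671579-19677941 on the minus strand, Mttp at chr3:138089854-138144968 on the minus strand, Sar1b at chr11:51763687-51791925 on the plus strand and Creb3l3 at chr10:81084324-81098874 on the minus strand. The 3′ end of Apoc2 is a special case, because 265 of the 270 bases of its last exon (98.15%) are also exon of the annotated gene Gm44805 on the same strand. Gm44805 had 0 UMIs in every class, and how molecules of the shared bases were assigned is not given in the sources used here, so the level of Apoc2 is uncertain and may be too low.

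The stretches just before the annotated starts of Apoa1, Apoa4 and Apob are shown as examples of genes that rose along the villus. Creb3l3, Apoc2 and Apoc3 rose as well. The stretches of Creb3l3 and Apoc2 are not shown and held neither of the words marked below. The sequences shown are the plus strand of GRCm38.p6 from the RefSeq promoter table, each cut off at the base before the start of the gene in the annotation above. Apoa1 is chr9:46228380-46228579, Apoa4 chr9:46240594-46240695 and Apob chr12:7977427-7977647.
Apoa1: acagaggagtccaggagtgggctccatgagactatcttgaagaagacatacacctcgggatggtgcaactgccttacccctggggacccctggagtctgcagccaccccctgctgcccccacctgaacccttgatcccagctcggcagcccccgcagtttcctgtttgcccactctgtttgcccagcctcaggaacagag
Apoa4: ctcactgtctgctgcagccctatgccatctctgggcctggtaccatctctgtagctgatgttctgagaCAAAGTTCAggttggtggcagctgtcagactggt
Apob: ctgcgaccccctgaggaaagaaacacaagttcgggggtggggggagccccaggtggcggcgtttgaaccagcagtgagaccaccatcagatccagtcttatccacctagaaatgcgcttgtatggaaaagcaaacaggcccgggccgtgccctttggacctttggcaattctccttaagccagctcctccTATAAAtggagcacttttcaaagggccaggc
The capitals in Apoa4 mark CAAAGTTCA, a word of the type bound by hepatocyte nuclear factor 4, at chr9:46240662-46240670, and those in Apob mark TATAAA at chr12:7977617-7977622. The table held windows of 250 bases before to 50 after the RefSeq start for 7 of the 8 genes, with Apoc3 missing. Of all 32851 promoters in it, 0.39% held CAAAGTTCA on either strand, 0.475% held CAAAGTCCA, 13.6% held TATAAA and 7.51% held TGACGT, the core of a cAMP response element. TGACGT was found before 1 start of Mttp and before no start of the other genes in the table, and CAAAGTCCA was found in none of their windows. These matches are descriptions of the letters in the windows.

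Over the libraries together, enterocytes carried the highest level of 7 of the 8 genes, and the 8 together took 4.97% of all UMIs of enterocytes in duodenum, 8.65% in jejunum and 5.82% in ileum. Apoa1 stood at 187 UMIs per 10000 in duodenal, 341 in jejunal and 429.6 in ileal enterocytes. In early enterocytes, the cells of the villus bottom that express Reg3b and Reg3g, its level was 67.0, 129 and 55.1, and in ISC 7.83, 22.1 and 10.8. The ranges of these 3 classes over the libraries did not overlap. The unnamed cells entered no class or zone test, and 1235 of them formed a cluster led by Ctrb1, Prss2 and Cela3b. Apoa1 in the unnamed cells was at 64.7%, 56.8% and 22.5% of the enterocyte level in duodenum, jejunum and ileum. In early enterocytes it was at 35.8%, 37.8% and 12.8%. Apoa4 was at 179, 399.7 and 90.9 in enterocytes, at 25.2, 37.4 and 2.80 in early enterocytes and at 6.05, 30.3 and 1.89 in ISC. Here the ranges of early enterocytes and ISC overlapped, since the jejunal ISC exceeded the duodenal early enterocytes. Apob was the most even, at 39.2, 34.3 and 33.2 in enterocytes against 9.50, 12.3 and 5.90 in early enterocytes. Apoc3 was at 75.0, 64.6 and 13.8 in enterocytes against 16.9, 14.6 and 1.17 in early enterocytes. Apoc2 was the rarest of the set, with 0.0605, 0.198 and 0.0156 in enterocytes, resting on 247, 863 and 50 UMIs. A single Apoc2 UMI among 38 duodenal B cells put that small class above the enterocytes of its library.

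For Apoa4 the early enterocytes did not rank second, since ileal T cells (12.1) exceeded the ileal early enterocytes and jejunal tuft cells (66.6) the jejunal ones. The regulator Creb3l3 had 4.69, 9.23 and 7.68 UMIs per 10000 in the enterocytes of the duodenum, jejunum and ileum and 2.19, 3.31 and 0.533 in early enterocytes. Mttp and Sar1b were less steeply graded between the 2 classes. Mttp had 10.3, 13.6 and 5.57 in enterocytes and 8.93, 12.0 and 3.67 in early enterocytes, so that within each library the classes were close and the segments separated them more than the class did. Sar1b had 1.51, 1.67 and 1.35 in enterocytes and 2.06, 2.56 and 1.73 in early enterocytes, higher in the early cells in 3 of 3 libraries.

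**Figure D1:**
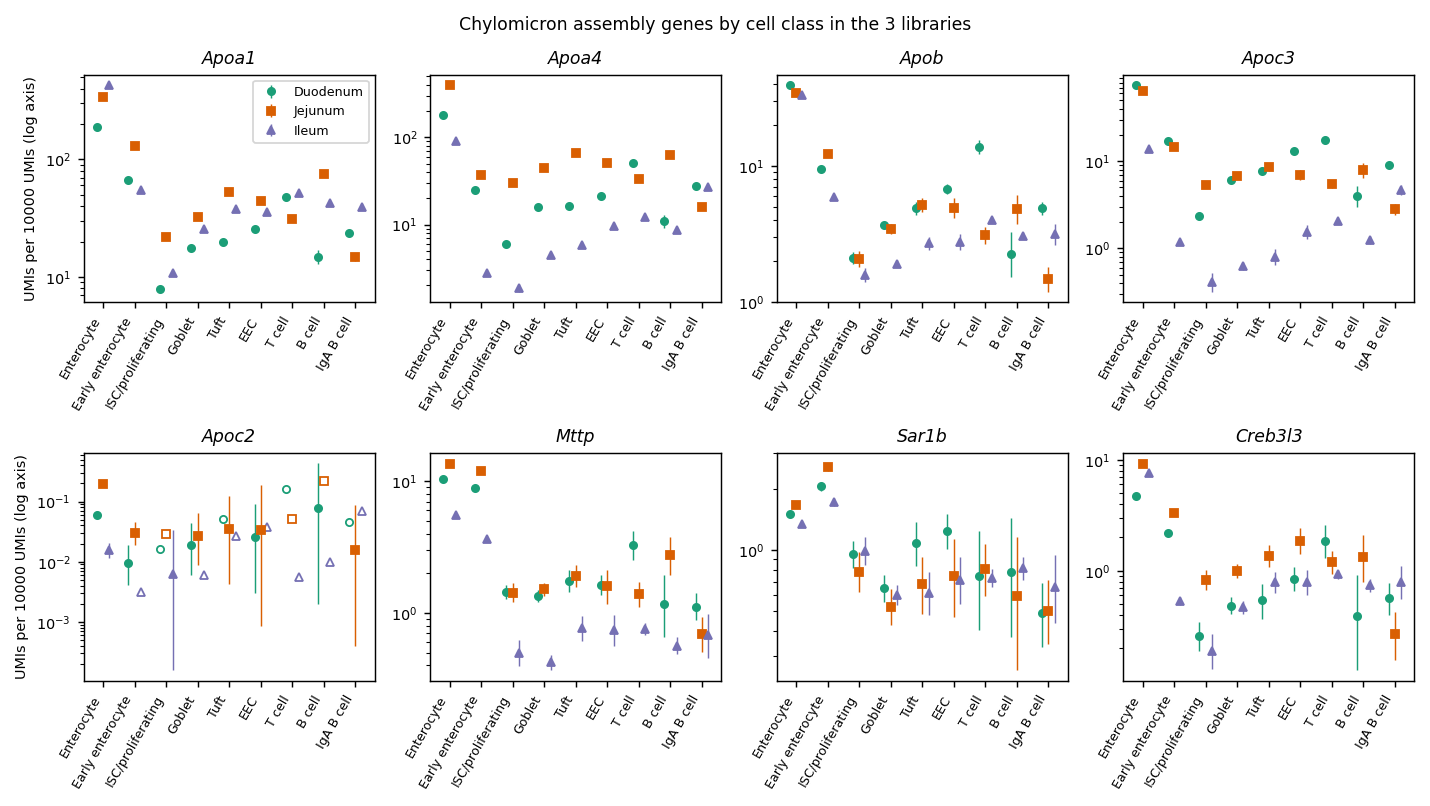
Level of each of the 8 genes (UMIs per 10000 UMIs, log axis) by cell class, 1 point for each library, with 95% Poisson intervals as bars and open symbols at the limit of 3 counts where no UMI was found. Enterocytes sit highest for Apoa1, Apoa4, Apob, Apoc3, Mttp and Creb3l3, while for Sar1b the early enterocytes, at 1.73 to 2.56, sit above the enterocytes, at 1.35 to 1.67.

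These differences were tested over the sums of the 3 libraries by the quasi-likelihood test of edgeR, adjusted after Benjamini-Hochberg over 12939 genes, with the library as a block. Early enterocytes were lower than enterocytes in 6 of the 8 genes, against 20.8% of all genes tested that were called lower. Apoa4 differed most, with a log2 fold change of -3.89 (SE 0.64, adjusted p = 2.26e-05), and Apoa1 by -2.21 (SE 0.44, adjusted p = 0.000243). Apoc2 (-3.26), Apoc3 (-2.82), Apob (-2.30) and Creb3l3 (-2.27) were called as well. Mttp, at -0.65 (SE 0.29, adjusted p = 0.0723), and Sar1b, at 0.18 (SE 0.22, adjusted p = 0.559), did not pass, and with cells of at most 20% mitochondrial UMIs the sign of Sar1b turned to -0.12. The median over the 8 genes was -2.28 beside -0.09 over all genes. Early enterocytes against ISC had 7 of the 8 genes higher, against 21.8% of all genes. The ISC class was mixed, so this contrast is not a clean step out of the crypt. A cluster of 130 of its cells was led by Gkn2, Tff1, Ube2c and Top2a, and another of 95 cells by Olfm4. T cell markers summed to 8.17 UMIs per 10000 in ISC, beside 0.301 in early enterocytes. Mttp rose by 3.29 (SE 0.32, adjusted p = 1.02e-08), Apoa1 by 3.14, Creb3l3 by 2.75, Apob by 2.69, Apoc3 by 2.36 and Sar1b by 1.65 on the log2 scale. Apoa4 passed at 1.48 (SE 0.58, adjusted p = 0.0415), but lost the call in 7 alternatives, among them DESeq2 (adjusted p = 0.0735), no TMM scaling (0.156), without the duodenum (0.25) and without the ileum (0.0532). Apoc2 had 2.42 (adjusted p = 0.13). Between ISC and early enterocytes, then, Mttp and Sar1b differed, while between early enterocytes and enterocytes neither passed the test, although Mttp did at -0.78 (adjusted p = 0.0116) once the 10% of cells most rich in enterocyte marker UMIs were left out of each class other than enterocytes.

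Against enterocytes, all 8 genes were lower in each of the other tested classes. The share of all genes called lower was 20.8% in goblet cells, 23.2% in tuft cells, 25.7% in EEC, 30.6% in ISC and 30.9% in T cells. Apoa1 had log2 fold changes of -3.67 in goblet cells, -3.73 in tuft cells, -3.95 in EEC, -5.35 in ISC and -3.53 in T cells. Sar1b, a gene of the general secretory route, differed least, with -1.37, -1.54, -1.53, -1.47 and -1.78. The calls of Apoc2 in goblet cells, tuft cells and EEC were lost without the jejunum, where the log2 fold change was -2.55 (adjusted p = 0.124), -7.62 (0.0551) and -2.73 (0.138). With DESeq2 its call was also lost in goblet cells (0.0575) and EEC (0.0903), and without TMM in EEC (0.0518). T cells had 0 UMIs of Apoc2 in all 3 libraries, so that ileal enterocytes were at least 2.77-fold and jejunal enterocytes at least 3.92-fold higher than the limit of 3 counts for each library. The TMM scaling had a strong effect on the balance of all genes: of all calls the share higher was 49.7% in early enterocytes, 47.2% in goblet cells, 50.6% in tuft cells, 53.4% in EEC, 51.9% in ISC, 51.0% in T cells and 49.0% in early enterocytes against ISC, and without TMM 68.1%, 47.3%, 72.4%, 78.2%, 71.9%, 70.5% and 27.4%. Apart from Apoc2 in EEC and Apoa4 in early enterocytes against ISC, no call on the 8 genes in these class comparisons was lost without TMM.

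Genes as abundant as these also appeared in cells that do not assemble chylomicrons. Within the ileum library, which held 1087 of the 1230 T cells, the level in T cells was 12.0% of that in enterocytes for Apoa1, 13.3% for Apoa4, 12.1% for Apob, 14.8% for Apoc3, 13.6% for Mttp and 12.1% for Creb3l3. The 12 enterocyte markers compared there lay between 11.5% and 17.0%, with a median of 12.9%, so the 6 genes stood where the markers did. In the 108 jejunal T cells the same genes lay between 8.44% and 12.9% (median of the markers 9.07%), and in the 35 duodenal T cells between 23.7% and 39.6% (median of the markers 31.4%). Sar1b was at 49.1% of the enterocyte level in duodenal, 48.3% in jejunal and 54.1% in ileal T cells, above every marker compared in each library. The T cells were then ranked by the share of their UMIs that came from the enterocyte markers. The richest 10%, which were 123 cells, held 19.4% of all T cell UMIs but 84.5% of those of Apoa1, 82.8% of Apoa4, 85.7% of Apob, 81.6% of Apoc3, 82.0% of Creb3l3 and 76.8% of Mttp. The same cells held 21.8% of the Sar1b UMIs. In the T cells left, Apoa1 was at 9.54 and Sar1b at 0.713 UMIs per 10000. Sar1b UMIs were thus spread over the T cells about as all UMIs were, and those of the 6 genes were gathered in a few cells. Tuft cells differed from this, with 16.0% of their Apoa4 UMIs, 23.8% of Apoc3 and 42.6% of Apoa1 in the 10% richest cells, which held 16.6% of all tuft cell UMIs. The highest enterocyte marker in tuft cells was, however, at 154%, 124% and 1149% of the enterocyte level in duodenum, jejunum and ileum. Their ranking also followed such a marker, so it was not the same measure as in T cells. With the 10% of such cells left out of each library and each class other than enterocytes, the log2 fold change of T cells against enterocytes was -5.63 for Apoa1 and -1.99 for Sar1b.

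**Figure D2:**
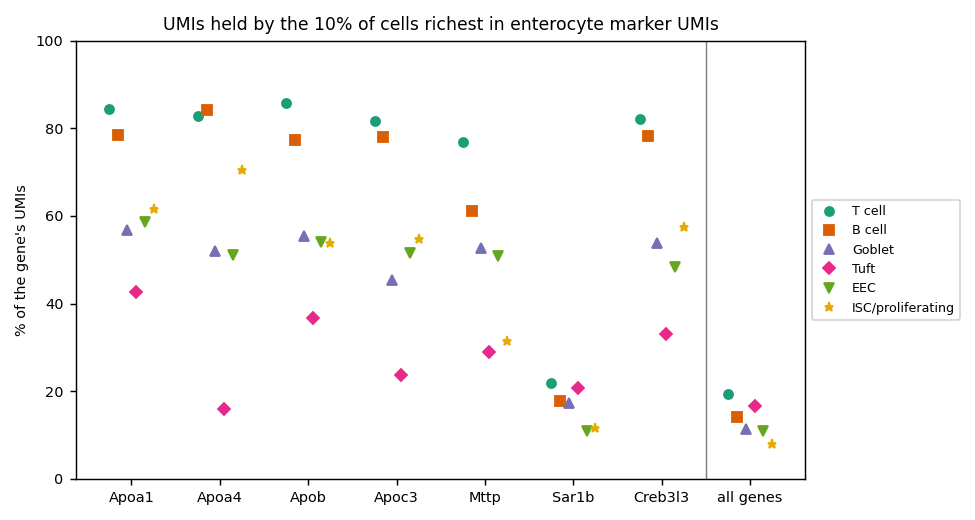
Percent of each gene's UMIs, Apoc2 not shown, found in the 10% of cells of a class whose UMIs came most from enterocyte markers, beside the percent of all UMIs of the class in those cells. The T cell points of Apoa1, Apoa4, Apob, Apoc3, Mttp and Creb3l3 lie at 76.8% to 85.7%, while that of Sar1b stands at 21.8%, near the 19.4% of all UMIs.

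To compare shares of cells at the same depth, each cell was thinned to 800 UMIs. Apoa1 was then seen in 99.8% of enterocytes and 55.5% of T cells, and Apoa4 in 89.6% and 19.5%. Without thinning, at medians of 10090 and 4262 UMIs, the shares for Apoa1 were 100% and 97.2%, so an Apoa1 UMI did not mark an enterocyte at full depth. Apob was seen in 88.5% of thinned enterocytes against 10.1% of T cells, Apoc3 in 79.9% against 8.29%, Mttp in 46.2% against 3.58% and Creb3l3 in 42.7% against 3.90%. Sar1b was seen in 9.65% (95% exact binomial interval 9.09 to 10.2) against 5.53% (4.32 to 6.96). Apoc2 was seen in 0.723% of enterocytes and in 0 of 1230 T cells. For T cells with an Apoc2 UMI at this depth, 3 cells (0.244%) were taken as the limit, which is not the exact binomial limit. It sets no limit on cells that express Apoc2. In early enterocytes Sar1b reached 14.2%, Mttp 38.9% and Apoc3 32.2%. Such intervals and limits cover counting error only.

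The 5 apolipoprotein genes and Creb3l3 rose from the bottom to the tip of the villus in every library. Enterocytes and early enterocytes of each library were ordered by a score of 7 tip and 8 bottom landmark genes, none of them one of the 8, and cut into 5 zones of equal cell number, zone 1 at the bottom and zone 5 at the tip. A zone is thus a rank of the score and not a measured position, and between 25.3% and 27.9% of the cells of a library lay within 0.1 SD of a boundary. In ileum the bottom landmark Reg1 was detected too rarely to enter the score. The ileal zones thus rest on fewer bottom landmarks than those of the other libraries. Apoa4 was at 49.3, 109, 146, 214 and 384 UMIs per 10000 over zones 1 to 5 in duodenum, at 94.7, 276, 407, 509 and 649.7 in jejunum and at 3.36, 38.9, 71.1, 104 and 195 in ileum. It rose at each step in each library, and the tip of the ileum came to lie between zones 3 and 4 of the duodenum. From zone 1 to zone 5 this was 7.77-fold, 6.86-fold and 58.2-fold. Apoa1 rose from 102 to 253 in duodenum, from 188 to 398 in jejunum and from 117 to 555 in ileum, also at each step. The ratio of Apoa4 to Apoa1 UMIs accordingly climbed from 0.485 to 1.52 in duodenum, from 0.503 to 1.63 in jejunum and from 0.0287 to 0.352 in ileum, where Apoa1 remained the more abundant in all zones. Together the 8 genes took 2.23%, 3.56% and 1.39% of all UMIs in zone 1 and 7.75%, 11.9% and 8.34% in zone 5 of the duodenum, jejunum and ileum.

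Apob rose from 17.9 to 46.5 in duodenum, from 19.9 to 43.0 in jejunum and from 8.98 to 50.6 in ileum. Its zone 5 levels lay closer together than its zone 1 levels, with the ileum lowest at the bottom and highest at the tip. Apoc3 gained most between zones 1 and 2, with 38.8, 74.7, 77.2, 78.2 and 73.5 over the zones of the duodenum, 33.0, 58.3, 63.2, 72.5 and 77.4 in jejunum and 2.70, 11.8, 14.3, 14.0 and 19.7 in ileum. Creb3l3 rose from 2.58 to 8.99 in duodenum and from 4.21 to 12.9 in jejunum, and in ileum from 1.26 in zone 1 to 10.3 in zone 4 and 9.37 in zone 5. Apoc2 rested on 35, 56, 60, 59 and 45 UMIs over the zones of the duodenum, on 115, 199, 191, 220 and 160 in jejunum and on 1, 11, 13, 7 and 18 in ileum.

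Mttp and Sar1b did not share this course. Mttp was at 10.1, 10.9, 10.5, 9.86 and 8.11 UMIs per 10000 over the zones of the duodenum, at 13.4, 14.4, 14.3, 13.0 and 11.2 in jejunum and at 4.71, 6.91, 6.56, 4.56 and 3.54 in ileum. In all 3 libraries it was highest in zone 2 and lowest in zone 5. Sar1b was at 1.95, 1.58, 1.43, 1.33 and 1.47 in duodenum, at 2.36, 1.82, 1.36, 1.55 and 1.51 in jejunum and at 1.75, 1.48, 1.47, 1.11 and 1.08 in ileum, highest in zone 1 of each. The ratio of zone 5 to zone 1 was 0.799, 0.837 and 0.751 for Mttp and 0.751, 0.638 and 0.616 for Sar1b.

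**Figure D3:**
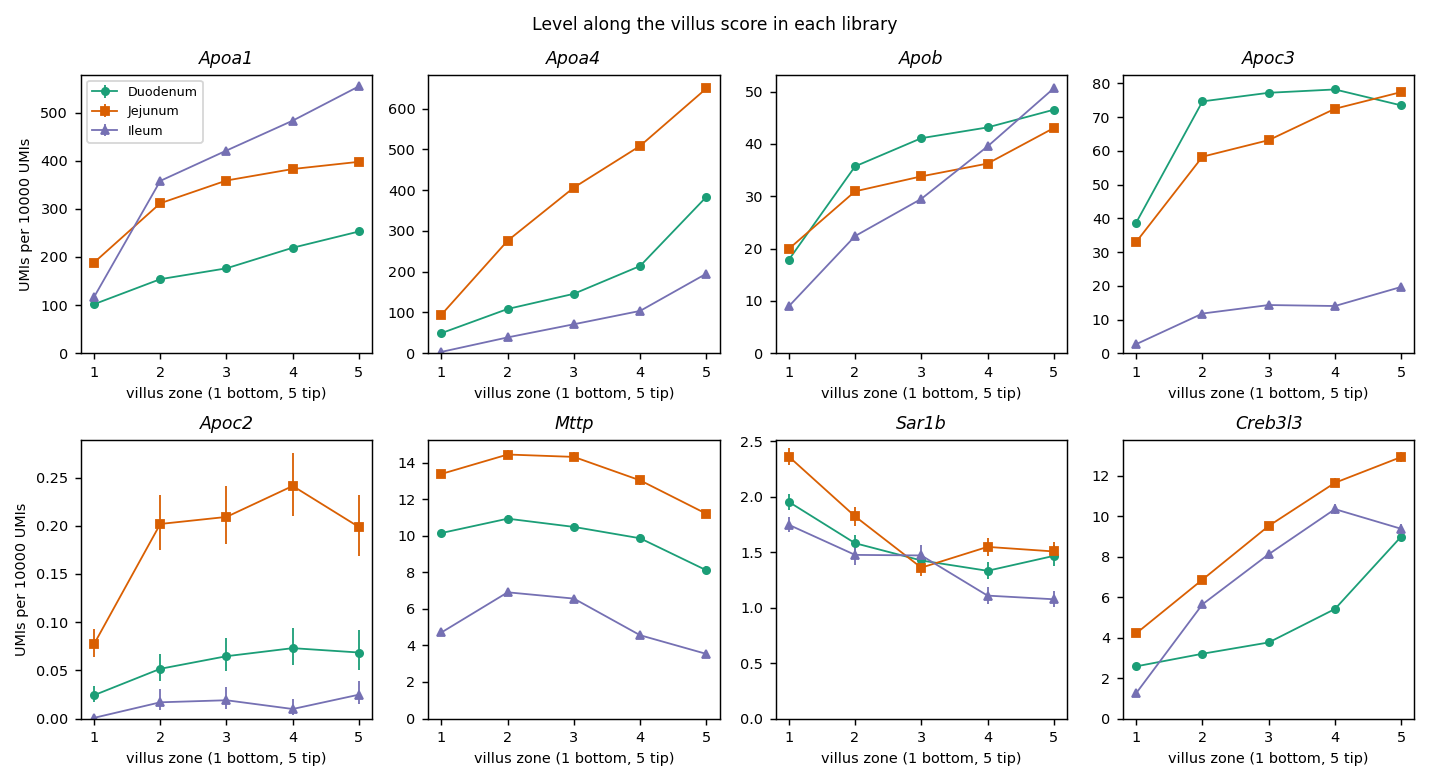
Level of each gene (UMIs per 10000 UMIs) over villus zones 1 (bottom) to 5 (tip), 1 line for each library, with 95% Poisson intervals as bars. Apoa4 climbs from 49.3 to 384, from 94.7 to 649.7 and from 3.36 to 195 in duodenum, jejunum and ileum, whereas Mttp is highest in zone 2 and Sar1b in zone 1 of each library, in levels without TMM scaling.

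Over the 15 sums of library and zone, the quasi-likelihood test of edgeR, adjusted after Benjamini-Hochberg over 11098 genes, called 6 of the 8 genes higher in zone 5 than in zone 1, where 33.6% of all genes were higher and 37.2% lower. The log2 fold change was 4.18 for Apoa4 (SE 0.54, adjusted p = 1.93e-05), 2.56 for Creb3l3 (SE 0.35, adjusted p = 2.68e-05), 2.33 for Apoc2 (SE 0.33, adjusted p = 4.44e-05) and 2.24 for Apob (SE 0.25, adjusted p = 6.27e-06). Apoc3 had 2.19 (SE 0.32, adjusted p = 5.36e-05) and Apoa1 2.09 (SE 0.25, adjusted p = 1.09e-05). The median over the 8 genes was 2.22 beside -0.10 over all genes. Mttp was at 0.26 (SE 0.15, adjusted p = 0.125) with TMM scaling and at -0.33 (adjusted p = 0.0533) without it, and Sar1b was at 0.01 (SE 0.12, adjusted p = 0.948) with it and at -0.58 (adjusted p = 0.00125) without it, so the direction of both genes depended on the scaling. Without TMM the median of all genes moved from -0.10 to -0.69, and the share of calls that were higher moved from 47.5% to 26.0%. Against these medians Mttp and Sar1b stood above the middle of all genes under both scalings, and the 6 called genes were higher under both, Apoa4 by 3.61 and Apoa1 by 1.51 without TMM. Mttp passed the test in 3 alternatives, with DESeq2 at 0.31 (adjusted p = 0.0476), with at most 20% mitochondrial UMIs at 0.62 (adjusted p = 0.0154) and with bottom landmarks alone at 0.34 (adjusted p = 0.0428).

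Zone 1 held 38.2% to 49.4% early enterocytes and the other zones at most 1.39%, so the first step of the gradient was also a step between classes. The bottom landmarks Reg1, Reg3b, Reg3g, Ccl25 and Dmbt1 were also among the markers that named the early enterocytes. The class and zone comparisons are therefore not independent of each other. With enterocytes only, the log2 fold change of zone 5 over zone 1 was 3.10 for Apoa4, 1.95 for Creb3l3, 1.45 for Apob, 1.32 for Apoa1, 1.24 for Apoc2 and 1.23 for Apoc3, with adjusted p of at most 0.000854. With at most 20% mitochondrial UMIs the values were larger, at 5.40 for Apoa4, 4.14 for Apoc2, 3.19 for Apoc3 and 3.01 for Apob. Without the ileum Apoa4 was at 3.42 and without the duodenum at 4.78. The median depth of a cell also changed along the zones. From zone 1 to zone 5 it fell from 18400 to 8453 UMIs in duodenum and from 20435 to 10913 in jejunum. In ileum it was 14069 in zone 1, 5367 in zone 2 and 7464 in zone 5. With cells thinned to 3000 UMIs Apoa4 was at 3.62. Marker lists of 9 other classes were summed in each zone, and those of 4 lists were higher in zone 5 than in zone 1 in 3 of 3 libraries. Tuft markers summed to 0.0166, 0.0188 and 0.0552 UMIs per 10000 in zone 1 of the duodenum, jejunum and ileum and to 0.0776, 0.134 and 0.139 in zone 5. Macrophage and monocyte markers were 4.16-fold, 3.70-fold and 3.30-fold higher, Paneth markers 1.65-fold, 1.54-fold and 1.94-fold and B cell markers 4.09-fold, 2.22-fold and 1.13-fold. T cell markers had ratios of 5.32, 2.14 and 0.935, goblet markers 1.75, 1.25 and 0.988, EEC markers 2.40, 0.571 and 0.603, IgA B cell markers 1.11, 1.04 and 0.584 and ISC markers 0.497, 0.654 and 0.477. The part of these lists in the results was not tested.

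**Figure D4:**
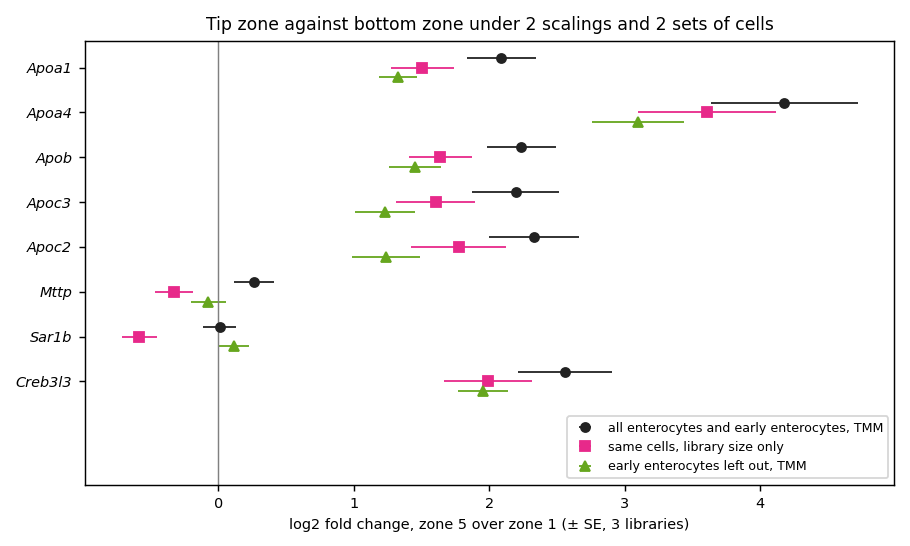
Log2 fold change of zone 5 over zone 1 for each gene from edgeR's quasi-likelihood fit with its SE, with TMM scaling, without it and with enterocytes only. Apoa4 lies at 4.18, 3.61 and 3.10, and the apolipoprotein genes and Creb3l3 lie above 1 in all 3 fits, while Mttp (0.26, -0.33 and -0.07) and Sar1b (0.01, -0.58 and 0.11) change sign with the scaling or the cells used.

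The lower and the upper steps of the gradient were tested apart. From zone 1 to zone 3, the same test called 6 genes higher (24.0% of all genes) and Sar1b lower (25.2% of all genes). Apoa4 rose by 2.53, Apoc2 by 1.81, Creb3l3 by 1.51, Apoc3 by 1.50, Apob by 1.34 and Apoa1 by 1.30 on the log2 scale. Without the jejunum Apoc2 (adjusted p = 0.051) and Creb3l3 (0.068) lost the call, and with enterocytes only Apoc3 (0.0783) did. Sar1b fell by 0.33 on the log2 scale (adjusted p = 0.0418). That call was lost in 11 of 15 alternatives, among them without the duodenum (0.158) and without the jejunum (0.321). Mttp was at 0.37 (adjusted p = 0.0545). It passed the test as higher in 7 of 15 alternatives, with log2 fold changes from 0.01 to 0.65 over the 15. From zone 3 to zone 5, 5 genes were called higher against 20.1% of all genes: Apoa4 by 1.65, Creb3l3 by 1.05, Apob by 0.89, Apoa1 by 0.79 and Sar1b by 0.34. The call of Sar1b was lost in 11 of 15 alternatives, and in 1 more, without TMM, its sign was opposite, at -0.09. Apoc3 (0.70, adjusted p = 0.0889), Apoc2 (0.51, adjusted p = 0.22) and Mttp (-0.10, adjusted p = 0.6) did not pass. These upper calls were fragile. Without TMM edgeR called only Apoa4 higher, without the duodenum only Apob, and without the jejunum or with bottom landmarks alone 0 of the 8 genes, of which 3 had an unadjusted p under 0.05 in each case. DESeq2 called 5 with all libraries. Without TMM the share of calls that were higher moved from 48.8% to 36.6% for zone 3 over zone 1 and from 52.4% to 16.5% for zone 5 over zone 3. The difference between the lower and the upper step was not tested. The 3 libraries in these tests come from 3 segments, so the p-values measure the spread of a zone or class difference over segments and not over animals.

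Other genes of the pathway were grouped into lists of 54 genes in all, of which 48 were abundant enough to be tested over the zones. Zone 5 over zone 1 called 24 of them higher and 12 lower, beside 33.6% and 37.2% of all genes, and without TMM 13 and 19, beside 18.8% of all genes higher and 53.6% lower. The counts of single lists below stand against these same shares. Of 18 genes of the COPII coat and the prechylomicron carrier, to which Sar1b belongs, 13 were higher and 0 lower in edgeR's test (Bet1, named after its values were seen, alone was lower at an unadjusted p under 0.05), and 6 were higher and 5 lower without TMM, with a list median of 0.56 beside -0.10 over all genes. Mia2, which helps to fit large cargo into COPII carriers, was at 1.68 and 3.80 UMIs per 10000 in zones 1 and 5 of the duodenum, 1.51 and 3.99 in jejunum and 1.02 and 3.99 in ileum (log2 fold change 2.10). Sec24d, a cargo-binding coat subunit, rose by 2.00, and Stx5a, a Golgi SNARE, by 1.24. Of 9 genes of particle lipidation, 6 were higher and 2 lower, and 3 and 3 without TMM. Dgat2, which makes triglyceride, rose by 2.51, the lipid droplet gene Plin3 by 1.88 and Cideb, known for its part in lipidating lipoproteins, by 1.28. Plin2, which coats lipid droplets, fell by 2.00 on the log2 scale, and Mogat2, the monoacylglycerol acyltransferase of fat absorption, fell by 0.89 on the log2 scale.

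Of 8 genes that edit and fold apolipoprotein B, 2 were called higher and 5 lower, or 1 and 5 without TMM. Apobec1, which edits the Apob message to the short form, rose by 2.34, and its cofactor A1cf by 0.63, a call lost without TMM (log2 fold change 0.04, adjusted p = 0.809) and with enterocytes only (0.15, adjusted p = 0.325). Of the 6 chaperone and folding genes, 5 fell, among them Canx by 2.42, Pdia3 by 1.34 and Hspa5 by 1.26 on the log2 scale. P4hb, which encodes the smaller subunit of the microsomal triglyceride transfer protein and is named because it was the one not called, was at 0.19 (adjusted p = 0.516), and with enterocytes only Hspa5 was at -0.57 (adjusted p = 0.11). Of 8 transcription factors and proteases that act on Creb3l3, 1 was higher and 5 were lower under both scalings, where 37.2% of all genes were lower with TMM and 53.6% without it. Hnf4a rose by 2.12. Ppara fell by 2.92, Hnf4g by 1.12 and Mbtps1, a Golgi protease that cuts Creb3l3, by 0.89 on the log2 scale. Among 8 further apolipoprotein genes 4 could be tested, and Apoa5 was called higher at 3.08, with levels of 0.0286 UMIs per 10000 or less in every zone. Cidec, the only testable gene of 3 known hepatic targets of Creb3l3, rose by 4.27, from 0.263 to 2.58 in duodenum, from 0.435 to 4.66 in jejunum and from 0.0733 to 2.14 in ileum.

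Over the 15 sums, centred within each library, log2 levels of Apoa1 and Apoa4 correlated at 0.99, Apoa1 and Apob at 0.97, Apoa1 and Apoc3 at 0.96 and Apoa1 and Creb3l3 at 0.97, while Mttp had -0.20 and Sar1b -0.83 with Apoa1. The sums of a library share its depth and mitochondrial share, and the values are a description. Of 2493 other genes, the 3 most like Apoa1 in this course were Apol7a (0.992), Nuak2 (0.990) and Ubxn2a (0.985), and the 3 most like Apoa4 were Ubxn2a (0.990), Nuak2 (0.985) and Gatsl2 (0.985). Apob was most like Ifit1bl2, Stx3 and Fryl, Apoc3 like Reep3, Ezr and Cdhr5, and Creb3l3 like Actn4, Dnm2 and Sct. Mttp was most like Acsl5 (0.964), an acyl-CoA synthetase gene, and Sar1b like Pfdn1, Mgst3 and Manf. Over the 29 sums of library and class, Mttp was most like Sec23a (0.952), a COPII coat gene, Cyp2d26 (0.952) and Tm6sf2 (0.939), and Apoa1 like Slc27a4 (0.946), a fatty acid transporter gene.

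Single enterocytes varied widely. The level of Apoa4 in a duodenal enterocyte was 44.7 at the 10th percentile, 140.5 at the median and 413 at the 90th percentile, in a jejunal one 106, 351 and 798, and in an ileal one 1.22, 43.5 and 290.3. For Apoa1 the same percentiles were 93.0, 175 and 325 in duodenum, 203, 348 and 514 in jejunum and 197, 440.3 and 688 in ileum. The ileum thus differed in the spread of Apoa4 more than in that of Apoa1. Within single cells of a library, Apoa1 and Apoa4 correlated at 0.68 in duodenum, 0.50 in jejunum and 0.60 in ileum, and Apoa1 and Sar1b at 0.06, -0.12 and 0.01, in sparse counts that share the total of the cell. An enterocyte cluster led by Ada and Nt5e held the highest Apoa4 of the duodenum, jejunum and ileum among the 8 enterocyte clusters, at 473, 637 and 249 UMIs per 10000. The cluster led by Fabp1 and Fbp1 held the lowest, at 92.0, 192 and 10.5.

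Among the genes above a level of 0.5, the segments differed most in Apoa4 and Apoc3. Each segment is 1 library, so the ratios below have no replicate check, and their 95% intervals cover counting error only. In enterocytes Apoa4 was 2.24-fold higher in jejunum than in duodenum (2.23 to 2.25), and the ileum had 0.228 of the jejunal level (0.227 to 0.228). Apoc3 in ileum was 0.214 of the jejunal (0.212 to 0.216) and 0.184 of the duodenal level (0.183 to 0.186). Mttp in ileum was 0.41 of the jejunal (0.403 to 0.417) and 0.54 of the duodenal level (0.531 to 0.55). Apoa1 was 1.82-fold higher in jejunum than in duodenum and, unlike Apoa4, Apoc3 and Mttp, also higher in ileum than in duodenum, by 2.29-fold. Apob changed little, with 0.874 for the jejunum over the duodenum and 0.968 for the ileum over the jejunum. Creb3l3 was 1.97-fold higher in jejunum than in duodenum and 0.832 in ileum over the jejunum, and Sar1b stood at 1.10 and 0.806. Apoc2 was 3.27-fold higher in jejunum than in duodenum (2.83 to 3.78), and the ileum had 0.0789 of the jejunal level (0.0581 to 0.105).

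For the 7 genes above a level of 0.5, the number at least 2-fold apart was 1 in jejunum over the duodenum, higher for Apoa4, where 6.55% of all such genes were higher and 6.96% lower. It was 3 in ileum over the jejunum, lower for Apoa4, Apoc3 and Mttp, where 10.2% of genes were higher and 5.58% lower. It was 2 in ileum over the duodenum, with Apoa1 higher and Apoc3 lower, where 17.1% of genes were higher and 13.3% lower. Enterocytes had a median mitochondrial share of 28.9% in duodenum and the jejunum and 11.9% in ileum, which enters the denominator. With mitochondrial genes left out, the ileum over the duodenum was 1.92 for Apoa1, 0.428 for Apoa4 and 0.454 for Mttp, which moves each of the 3 across the 2-fold line. With cells of at most 20% mitochondrial UMIs, Sar1b in ileum was 0.431 of the jejunal level.

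The gap between segments depended on the zone. In zone 1 the ileum had 0.0354 of the jejunal Apoa4 level, in zone 3 0.175 and in zone 5 0.3. For Apoc3 the ratio was 0.0817 in zone 1 and 0.254 in zone 5. Apob went from 0.45 in zone 1 to 1.18 in zone 5 and Apoa1 from 0.619 to 1.39, so both were below the jejunum at the ileal bottom and above it at the tip. Creb3l3 was 0.299 in zone 1 and between 0.726 and 0.888 in the zones above. Mttp stayed between 0.316 and 0.478 in all 5 zones. Between the jejunum and the duodenum the ratios changed less, with Apoa4 between 1.69 and 2.79 and Apob between 0.822 and 1.12.

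**Figure D5:**
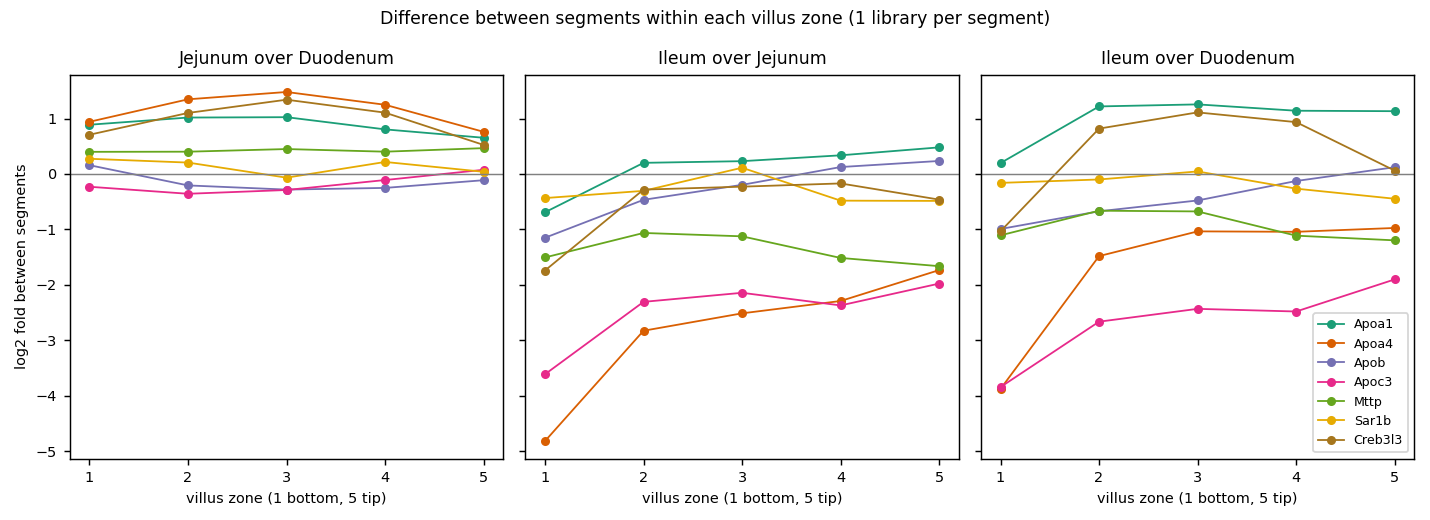
Log2 ratio of levels between segments for each gene in villus zones 1 to 5, Apoc2 not shown and without intervals. The panels are jejunum over the duodenum, ileum over the jejunum and ileum over the duodenum. As plain ratios, the ileal deficit of Apoa4 narrows from 0.0354 to 0.3 of the jejunal level from zone 1 to zone 5. Apob crosses from 0.45 to 1.18 of the jejunal level, while Mttp stays between 0.316 and 0.478.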

How the data were processed

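The authors deposited filtered UMI count matrices, 1 for each of the 3 segment libraries (10x 3′ chemistry, Cell Ranger 3.0.2 on GRCm38/mm10 per the submitters' processing notes). These counts were analysed as deposited. The 8 genes, the marker lists, the pathway lists and the tests were chosen with earlier results of these data known. Barcodes with 800 to 50000 UMIs, 200 to 6000 detected genes and no more than 40% mitochondrial UMIs were kept. Libraries were integrated and clustered with Seurat 5.3.0 on 2000 variable genes at resolution 0.8, with the 8 genes and the pathway genes left out. Clusters were named from markers. Scrublet (scanpy 1.11.5) served to call doublets. Counts were summed for each library and class (at least 10 cells) or villus zone and tested with edgeR 4.0.16 (filterByExpr, TMM, quasi-likelihood, library as a block), at an adjusted p threshold of 0.05. Scripts were tested on simulated data with a log2 change of 1 put into 200 genes. The class comparisons recovered 12% to 26% of these, with 9 to 37 false calls each. The zone comparisons recovered 39% to 58.5%, with 2 to 19 false calls each. A gene that was not called is thus not shown to be unchanged, and a call near the threshold is weak. DESeq2 1.42.0 was 1 alternative, and the others changed scaling, filters, landmarks, zones, doublets, clustering, thinning and libraries. Segment ratios have exact Poisson intervals, shares exact binomial intervals (95%). Of the other genes, those named were the called ones of each pathway list with the largest change from zone 1 to zone 5, at most 3 per direction, and the 3 genes most correlated with each of the 8. For correlations, log2(level + 0.1) was used for genes with a mean level of at least 0.5. Gene positions are from GENCODE M21, which held 99.9% of the gene IDs.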

Additional observations from a re-analysis of the deposited data

Results flagged for a closer look

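Barcodes above the limit of 40% mitochondrial UMIs entered no comparison, yet all 8 genes were counted in them above the limit that 0 counts allow, with the exception of Apoc2 in the ileum (2 UMIs). They were 5068 barcodes of the duodenum (53.3% of its barcodes), 3546 of the jejunum (43.6%) and 1222 of the ileum (12.7%), with median mitochondrial shares of 56.5%, 54.3% and 59.2%. On a scale of UMIs per 10000 non-mitochondrial UMIs, the left-out barcodes of the duodenum held Apoa1 at 202, Apoa4 at 166, Apob at 47.3, Apoc3 at 54.2, Apoc2 at 0.0419, Mttp at 12.7, Sar1b at 1.34 and Creb3l3 at 6.79. The kept duodenal enterocytes stood on this scale at 258 for Apoa1, 246 for Apoa4, 103 for Apoc3, 14.2 for Mttp and 6.46 for Creb3l3. In the jejunum the left-out barcodes held Apoa1 at 437, Apoa4 at 346, Apob at 36.1, Apoc3 at 54.4, Apoc2 at 0.177, Mttp at 14.3, Sar1b at 1.08 and Creb3l3 at 11.1, beside 468 for Apoa1, 548 for Apoa4 and 18.6 for Mttp in the kept enterocytes. In the ileum the left-out barcodes held Apoa1 at 155, Apoa4 at 19.9, Apob at 24.0, Apoc3 at 4.23, Mttp at 6.33, Sar1b at 1.24 and Creb3l3 at 3.57, beside 497 for Apoa1, 105 for Apoa4 and 6.44 for Mttp in the kept enterocytes. Mttp in the left-out barcodes thus lay closer to the kept enterocytes than Apoa4 did in each library, a comparison without a test in which the left-out barcodes were not sorted into classes.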

How the results depend on the processing

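For each comparison the 8 genes were counted. The count was of genes called, of genes at least 2-fold apart between segments, or of genes seen in a larger share of enterocytes than of T cells. It was within 1.5 times its reported value in 143 of 150 alternative results. Only the counts were compared, so the genes behind a count could differ. The number called higher in zone 3 over zone 1 was 6 and fell to 1 with no library block. For zone 5 over zone 3 it was 5, and became 1 with no TMM, 0 with no library block, 0 with 3 zones and 0 with bottom landmarks only, and ranged from 0 to 5 with each library left out. With each library left out, zone 3 over zone 1 ranged from 4 to 7 and zone 5 over zone 1 stayed at 6. With no library block, Apoc2 and Apoc3 lost the call in zone 5 over zone 1. There 4 of the 8 genes were higher at an unadjusted p under 0.05 in edgeR's test. Of the single genes, 12 values changed sign. In early enterocytes against enterocytes Sar1b was at -0.12 with at most 20% mitochondrial UMIs. In zone 5 over zone 1 Mttp was at -0.33 with no TMM and -0.075 with enterocytes only, and Sar1b at -0.58 with no TMM, -0.0015 with mitochondrial genes left out, -0.062 with 3 zones, -0.086 with bottom landmarks only and between -0.049 (without the jejunum) and 0.031 with each library left out. In zone 5 over zone 3 Apoc2 was at -0.17 with cells thinned to 3000 UMIs, Mttp between -0.24 and 0.054 (without the ileum) with each library left out, and Sar1b at -0.093 with no TMM. Apob in the ileum over the jejunum was at 0.13 (log2) with clusters built without integration. The causes were not tested. Classes and zones were compared within libraries, with the library as a block. Between segments no paired analysis was possible because each has 1 library. The depth limits Apoc2 most, with 50 UMIs in all ileal enterocytes.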
